A study of Danio rerio with 6 samples.

Results

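Homeobox genes outside the Hox clusters that pattern the embryo were followed over 6 Affymetrix arrays of whole embryos of the zebrafish (Danio rerio), all of the TL strain. They were taken as every probe set whose current gene symbol begins with dlx-, irx-, six-, lhx-, nkx-, otx-, msx-, pax-, pitx-, meis-, pbx-, vsx- or emx- followed by a digit. This gave 90 of the 15617 probe sets on the array, for 73 of the 8793 genes named there, in 12 families. No probe set carried a pitx symbol. The arrays comprised 2 of embryos injected with about 2.5 pmol of a morpholino against Spt5, 2 of embryos injected with about 2.5 pmol of a standard control morpholino, and 1 of untreated embryos, all collected at 21 hours after fertilization (hpf). A last array held untreated embryos collected at 5 hpf. Both morpholinos carried carboxyfluorescein and were injected before or just after the first cleavage. How many embryos or clutches stood behind an array is not given in the labels, so the p-values rest on the spread between arrays alone, and that spread may be technical.

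The homeodomain is a DNA-binding domain, and the genes followed here mark out territories of the embryo. Six3, otx and emx genes act in the forebrain, eye and midbrain, irx and pax2 genes around the boundary of midbrain and hindbrain, and meis and pbx genes with Hox proteins in the hindbrain. Msx genes act at the border of the neural plate, dlx genes in the ventral forebrain, placodes and pharyngeal arches, and nkx genes in the ventral nervous system, pharynx and heart. Pax genes are named for another DNA-binding domain, the paired domain, and some of them lack a complete homeodomain. Spt5 is a subunit of DSIF, which binds RNA polymerase II and acts in pausing and elongation. The oligonucleotide used against it is shown because the main comparison below is between embryos with and without it, and the labels give it as follows.
Spt5 morpholino: gtttctctacagtctgtcgctcctg

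Values are intensities after quantile normalization over the 5 arrays at 21 hpf, and an intensity of 32 (log2 of 5) was used as the level of detection. The supt5h transcript, which encodes Spt5, stood at 214 and 175 with the Spt5 morpholino, against 199 and 176 with the control morpholino (log2 difference 0.05 ± 0.14 SE, limma adjusted p = 0.804). The sources used here do not give the site where the morpholino binds. A morpholino that blocks translation would leave the mRNA unchanged, so the knockdown is not checked by this value. Array medians before normalization lay between 26.9 and 44.0 at 21 hpf and at 18.3 at 5 hpf. The ratio of 3' to 5' signal of the actin control probe sets was 6.94 and 6.99 with the Spt5 morpholino, against 9.91 and 9.61 with the control morpholino, and its part in the differences below was not tested. In these whole embryos fewer cells of a type and less RNA per cell cannot be told apart. Summed markers of several tissues were compared as well. The summed intensity of 11 neural marker probe sets (elavl3, sox2, sox3, sox19a) was 2234 and 2371 with the Spt5 morpholino, against 2290 and 2447 with the control morpholino, while that of 4 skeletal muscle probe sets was 580 and 552 against 3457 and 3407, and that of 5 blood probe sets 510 and 466 against 4108 and 3923. Within the neural sum sox19a was called lower, at 367 and 361 against 484 and 514 (log2 difference -0.45, limma adjusted p = 0.0147). The other 7 tested neural probe sets were not called. The part of these tissues in the differences below was not tested.

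Spt5 morpholino embryos were set against control morpholino embryos to find the transcripts that respond to the Spt5 morpholino. All 4 tested probe sets of six-family genes were higher with the Spt5 morpholino, as were 5 of 10 of genes of the midbrain and its boundary with the hindbrain. Of 8 tested probe sets of meis and pbx genes, which act in the hindbrain, 6 were lower. Of the 90 probe sets, 40 passed the filter of an intensity of at least 32 on at least 2 of the 4 morpholino arrays. In the fit across all 8457 probe sets that passed (lmFit and eBayes of limma, two-sided, Benjamini-Hochberg adjusted p below 0.05), 13 of the 40 were higher (32.5%, against 24.3% of all probe sets) and 9 lower (22.5%, against 23.0%). The share called in either direction was 55.0%, against 47.3% over the whole array, so these shares lay near those of the array as a whole. The median log2 difference was 0.09, against 0.04 over all tested probe sets, and the range was -0.67 to 1.19. Fitted differences of at least 2-fold were those of otx2a, irx7, dlx6a and nkx2.7, all higher with the Spt5 morpholino (4.69% of all probe sets were called and at least 2-fold higher, 6.88% lower). Of the 13 higher, otx2a and dlx6a passed the filter only through their Spt5 values, so for them a difference was built in. The 2 Spt5 arrays lay above both control arrays for 17 of the 40 (40.5% over the array) and below both for 12 (36.5%). With 1 probe set per gene, 13 of 36 genes were higher and 8 lower.

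Directions are relative to the quantile-normalized distribution. Without normalization between arrays the median of all tested probe sets was -0.21, and with arrays centred on the bacterial spike-in probe sets it was -0.275, and the members' differences moved down with it. On the deposited scale 3 members were higher and 2 lower (305 and 1350 of all probe sets), and with spike-in centring 6 were higher and 14 lower (910 and 3516 of all). No called member changed sign under either scaling where it was still tested. For the lower members this is no check, as both scalings moved values down. The counts also rest on the number of arrays. With any 1 morpholino array left out fewer members were called, as were fewer probe sets over the whole array, and the members' median difference lay between 0.05 and 0.11. When no filter on dim values was set, 2 of the 90 members were called, against 2.21% of 15502 probe sets higher and 3.43% lower. These were irx7, higher (limma adjusted p = 0.0450), and otx5, lower (0.0450), but otx5 lay below an intensity of 32 on every array. The genes called on the deposited scale were dlx6a, irx7 and nkx2.7 (higher) and meis2a and msx3 (lower). The other called members lost their call there, except otx2a, which was not tested, and irx7 was called under all 10 alternative settings.

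**Figure D1:**
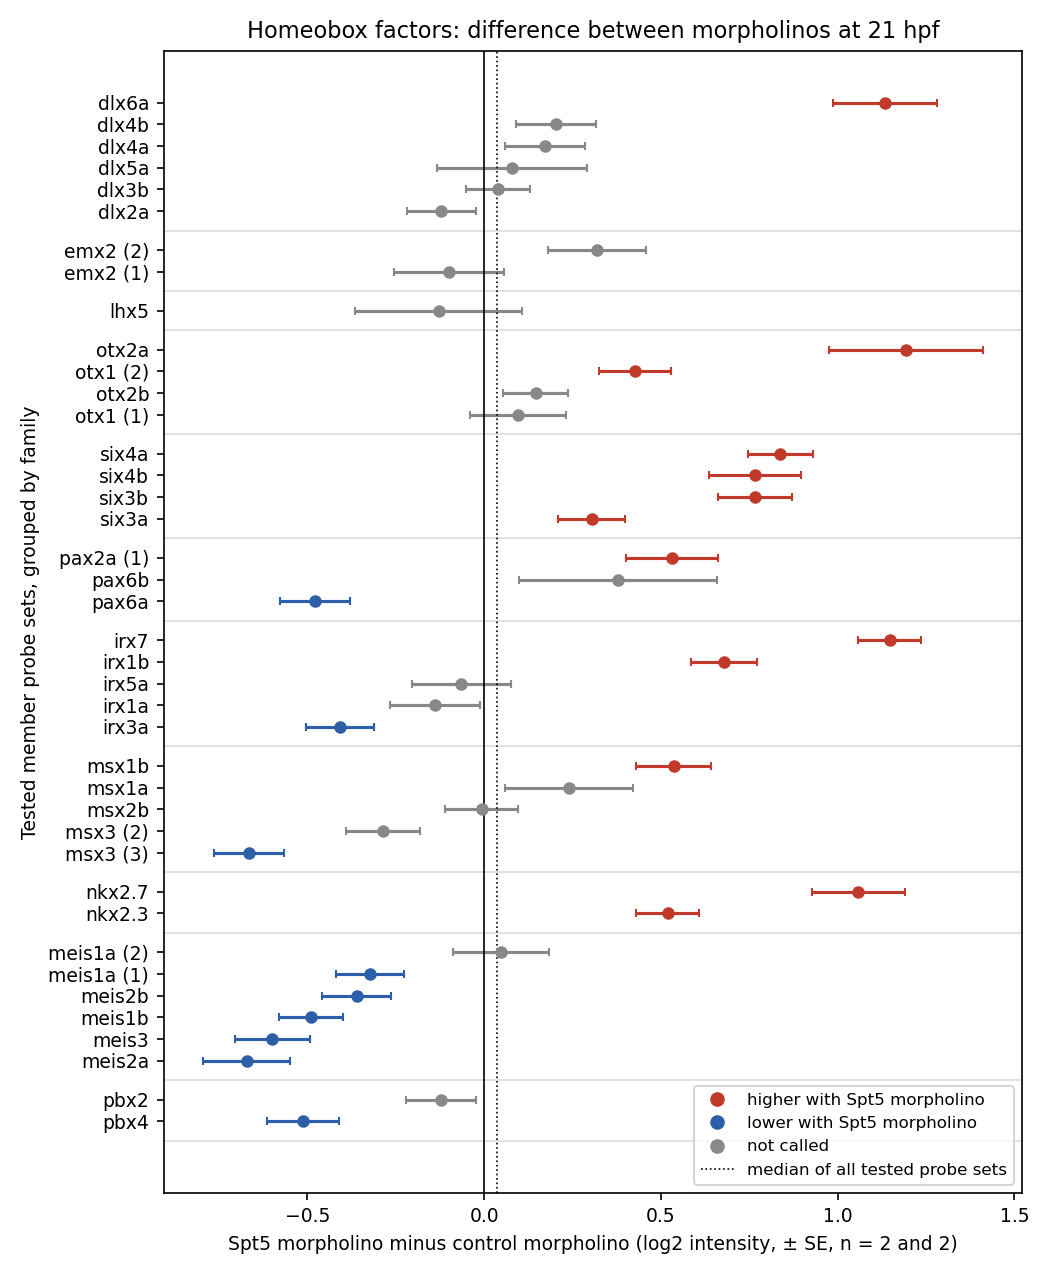
Log2 difference between Spt5 and control morpholino embryos (x axis, with the limma SE, n = 2 and 2) for the 40 tested member probe sets, grouped by family; numbers in parentheses count the probe sets of a gene. All 4 six-family probe sets lie to the right of 0, 5 of 6 meis probe sets are called lower, and the dotted line marks the median of all tested probe sets at 0.04.

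Every six-family gene that could be tested was higher with the Spt5 morpholino, as were 24.3% of all probe sets. six3b, which acts in the anterior forebrain and eye, had intensities of 203 and 186 with the Spt5 morpholino, against 120 and 110 with the control morpholino and 114 in untreated embryos. The log2 difference was 0.77 ± 0.10 (SE, 2 arrays a group, limma adjusted p = 0.00446). The groups did not overlap, and the untreated value lay between the control arrays. Its paralog six3a stood at 148 and 142, against 121 and 114, with 77.4 in untreated embryos. Its difference was 0.30 ± 0.09 (adjusted p = 0.0478), and the call was lost whichever of the 4 arrays was left out (adjusted p of 0.0983 to 0.169). six4a and six4b, which are expressed in sensory placodes and in muscle precursors, were higher by 0.84 ± 0.09 (adjusted p = 0.00257) and 0.77 ± 0.13 (adjusted p = 0.00826). The intensities of six4a were 81.7 and 82.2, against 44.8 and 47.4, and 45.5 in untreated embryos. Those of six4b were 61.1 and 66.2, against 34.1 and 41.4, and 35.0 in untreated embryos. In both genes the Spt5 arrays stood apart and the untreated array lay at the level of the control arrays. six3b, six4a and six4b kept their calls without each array in turn, and all 4 lost them on the deposited scale (adjusted p of 0.197 to 0.900), where their differences were 0.08 to 0.59. six3a was at 0.03 with spike-in centring (0.837). The muscle markers, summed above, were lower in the same embryos.

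The other 7 six-family probe sets were not tested. six5 reached 34.3 and 33.0 with the Spt5 morpholino, against 29.3 and 28.7 with the control morpholino, when normalized over 5 arrays. The first probe set of six7, a gene of the eye and anterior forebrain, was at 37.3 and 31.7, against 4.84 and 8.54, and 6.39 in untreated embryos. Only 1 of its Spt5 values lay above the level of detection, and the control values lay far below it, so only a lower limit of 1.06-fold can be given, with no test. The other six7 probe set, six2a, six6a, six6b and six9 stayed below 32 on all 5 arrays at 21 hpf.

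Among the genes of the midbrain and its boundary with the hindbrain, 5 of 10 tested probe sets were higher and 1 lower. Over all probe sets the shares were 24.3% and 23.0%. Of the 5, otx2a passed the filter only through its Spt5 values, so for it a difference was built in. With any 1 morpholino array left out fewer of this group were called higher, as were fewer probe sets over the whole array, and the group median lay between 0.17 and 0.26. With spike-in centring 2 of 9 were higher (10.7% of all probe sets), and on the deposited scale 1 of 9 (3.59% of all). irx7 belongs to the Iroquois family and is known in zebrafish for a part in patterning the midbrain and hindbrain. Its intensities were 116 and 115 with the Spt5 morpholino, against 53.0 and 52.5 with the control morpholino and 37.4 in untreated embryos. The replicates were almost equal and the groups far apart, with a difference of 1.15 ± 0.09 (adjusted p = 0.00132). irx1b, which acts with irx7 in the zebrafish hindbrain, stood at 325 and 311, against 204 and 193, with 184 in untreated embryos (0.68 ± 0.09, adjusted p = 0.00465). Both calls held without each array in turn, although that of irx1b was lost on the deposited scale (0.47, adjusted p = 0.337). irx3a went the other way, at 142 and 131, against 179 and 183, and 226 in untreated embryos. It was lower by -0.41 ± 0.10 (adjusted p = 0.0225), a call that ended whichever of the 4 arrays was left out (adjusted p of 0.0531 to 0.0980). irx1a and irx5a differed by -0.14 ± 0.13 and -0.06 ± 0.14 and were not called.

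The otx genes, regulators of head, forebrain and midbrain identity, had 2 of 4 tested probe sets higher, against 24.3% of all probe sets. otx2a stood at 34.9 and 50.3 with the Spt5 morpholino, against 20.8 and 16.2 with the control morpholino and 34.7 in untreated embryos. The fit gave 1.19 ± 0.22 (adjusted p = 0.0104), but both control values lay below 32, so the fold is given as at least 1.27. The gene passed the filter only through the Spt5 arrays, and the untreated value was close to the lower Spt5 value. otx1 has 2 probe sets, and only the second was called, at 129 and 128, against 90.5 and 102 (0.43 ± 0.10, adjusted p = 0.0237). The first gave 0.10 ± 0.14 (adjusted p = 0.593). The call of the second was lost when leaving out Spt5 morpholino replicate 1 (adjusted p = 0.0924) or 2 (0.0831) or control morpholino replicate 1 (0.101), and also with spike-in centring (0.302). otx2b, at 64.7 and 62.5, against 58.5 and 56.6, differed by 0.15 ± 0.09 and was not called (adjusted p = 0.241). pax2a, a determinant of the midbrain-hindbrain boundary that also acts in optic stalk, ear and kidney, stood at 67.9 and 66.0, against 51.6 and 42.0, and 58.7 in untreated embryos. It was higher by 0.53 ± 0.13 (adjusted p = 0.0244), and the call was lost when leaving out Spt5 morpholino replicate 1 (0.0975) or 2 (0.0837) or control morpholino replicate 2 (0.0707), and also with spike-in centring (0.248). Its other probe set stayed below 32 on every array at 21 hpf, at 29.3 and 26.1, against 15.3 and 14.3.

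Of the 10 tested probe sets of forebrain and eye genes, 3 were higher and 1 lower. Over all probe sets 24.3% were higher and 23.0% lower, so these counts lay near those of the array. Besides six3a and six3b, the higher member was dlx6a, a gene of ventral forebrain and pharyngeal arches. It stood at 43.2 and 34.7 with the Spt5 morpholino, against 16.5 and 19.0 with the control morpholino and 24.0 in untreated embryos. Both control values lay below 32, so the difference of 1.13 ± 0.15 (adjusted p = 0.00396) is given as at least 1.17-fold, and the gene passed the filter only through the Spt5 arrays. With 1 array left out, dlx6a and otx2a failed the filter in 3 of the 4 fits. dlx5a, with which dlx6a shares a gene pair and much of its expression, was at 148 and 98.9, against 122 and 108, so that the groups overlapped (0.08 ± 0.21, adjusted p = 0.784). The other tested dlx genes, dlx2a, dlx3b, dlx4a and dlx4b, differed by -0.12 to 0.20 and were not called. pax6a, a master regulator of the eye, fell to 76.6 and 70.1 with the Spt5 morpholino, against 99.6 and 104 with the control morpholino, with 83.8 in untreated embryos. Its difference was -0.48 ± 0.10 (adjusted p = 0.0149), a call lost when leaving out Spt5 morpholino replicate 2 (0.0698) or control morpholino replicate 2 (0.0541). Its paralog pax6b was at 52.5 and 45.3, against 28.4 and 49.8, so the control arrays spread more widely than the groups differed (0.38 ± 0.28, adjusted p = 0.309). The telencephalic gene emx2, with 2 probe sets at -0.10 ± 0.16 and 0.32 ± 0.14, and the forebrain gene lhx5, at -0.13 ± 0.24, were not called.

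The meis and pbx genes encode TALE homeodomain proteins, which bind DNA together with Hox proteins. Of their 8 tested probe sets, 6 were lower with the Spt5 morpholino and 0 higher, at a background of 23.0% lower. meis3, which acts with pbx4 in zebrafish hindbrain patterning, stood at 176 and 198 with the Spt5 morpholino, against 287 and 278 with the control morpholino and 337 in untreated embryos. It was lower by -0.60 ± 0.11 (adjusted p = 0.00928). meis2a stood at 50.7 and 60.0, against 91.3 and 83.8, with 94.5 in untreated embryos, and was lower by -0.67 ± 0.12 (adjusted p = 0.0106). In both genes neither Spt5 array reached either control array, and the calls held without each array in turn. meis1b stood at 300.2 and 303, against 415 and 432, with 395 in untreated embryos (-0.49 ± 0.09, adjusted p = 0.0108), and its call was lost when leaving out Spt5 morpholino replicate 1 (0.0509). meis2b, at 128 and 139, against 171 and 172, was lower by -0.36 ± 0.10 (adjusted p = 0.0325). Its untreated value of 132 lay with the Spt5 arrays. The call of meis2b was lost whichever of the 4 arrays was left out (adjusted p of 0.0651 to 0.136).

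The 2 probe sets of meis1a disagreed. The first stood at 72.8 and 73.4 with the Spt5 morpholino, against 87.9 and 94.9 with the control morpholino (-0.32 ± 0.10, adjusted p = 0.0424), with no call once any array was left out (adjusted p of 0.0748 to 0.151). The second, whose identifier has the suffix that Affymetrix gives to probes shared between transcripts, gave 0.05 ± 0.14 (adjusted p = 0.795). pbx4, the main pbx gene of the early zebrafish hindbrain, stood at 73.8 and 72.4, against 109 and 98.8, with 172 in untreated embryos, above all 4 morpholino arrays. It was lower by -0.51 ± 0.10 (adjusted p = 0.0128), and the call was lost when leaving out Spt5 morpholino replicate 1 (0.0542) or 2 (0.0596) or control morpholino replicate 1 (0.0537). pbx2, at 152 and 159, against 162 and 177, differed by -0.12 ± 0.10 and was not called. Of the 8 meis and pbx probe sets, 1 was called lower on the deposited scale (15.9% of all probe sets) and 7 with spike-in centring (41.5% of all). None had a positive difference under either, but both scalings also moved the median of all tested probe sets down, to -0.21 and -0.275. With any 1 morpholino array left out fewer of the 8 were called lower, as were fewer probe sets over the whole array, and their median lay between -0.46 and -0.4. Hindbrain and spinal cord genes of the nkx and lhx families did not reach the filter.

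The msx genes respond to BMP signals and act at the neural plate border, in dorsal neural tube and in fin folds. Of 5 tested probe sets 1 was higher and 1 lower, near the shares of all probe sets (24.3% and 23.0%). The summed intensity of 3 neural crest markers (crestin, sox10, foxd3) was 332 and 334 with the Spt5 morpholino, against 606 and 593 with the control morpholino, and its part in these values was not tested. That gap came from crestin, at 19.7 and 17.8 against 312 and 306 (at least 9.47-fold lower), while sox10 (-0.08, limma adjusted p = 0.571) and foxd3 (0.22, adjusted p = 0.113) were not called. msx1b stood at 352 and 384 with the Spt5 morpholino, against 243 and 265 with the control morpholino and 277 in untreated embryos, and was higher by 0.54 ± 0.10 (adjusted p = 0.0127). That call was lost when leaving out Spt5 morpholino replicate 2 (0.0621) or control morpholino replicate 1 (0.0521) and with spike-in centring (0.0714). The third probe set of msx3, a marker of dorsal neural tube, was lower, at 66.6 and 61.8, against 98.5 and 104, with 125 in untreated embryos (-0.67 ± 0.10, adjusted p = 0.00557). The second msx3 probe set lay the same way at 159 and 177, against 196 and 212, but was not called (-0.29 ± 0.11, adjusted p = 0.0784). The call of the third held without each array in turn. msx1a and msx2b differed by 0.24 ± 0.18 and -0.01 ± 0.10 and were not called.

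Of the nkx genes only nkx2.7 and nkx2.3 reached the filter, and both were higher with the Spt5 morpholino (24.3% of all). nkx2.7, which acts in heart precursors and pharyngeal arches, stood at 138 and 150 with the Spt5 morpholino, against 76.9 and 63.2 with the control morpholino and 70.4 in untreated embryos. It was higher by 1.06 ± 0.13 (adjusted p = 0.00352). nkx2.3, a gene of pharyngeal endoderm, stood at 52.5 and 53.5, against 37.1 and 37.1, with 43.5 in untreated embryos (0.52 ± 0.09, adjusted p = 0.00871). Neither gene's groups overlapped, and both calls held without each array in turn, although that of nkx2.3 was lost on the deposited scale (adjusted p = 0.680) and with spike-in centring (0.183).

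**Figure D2:**
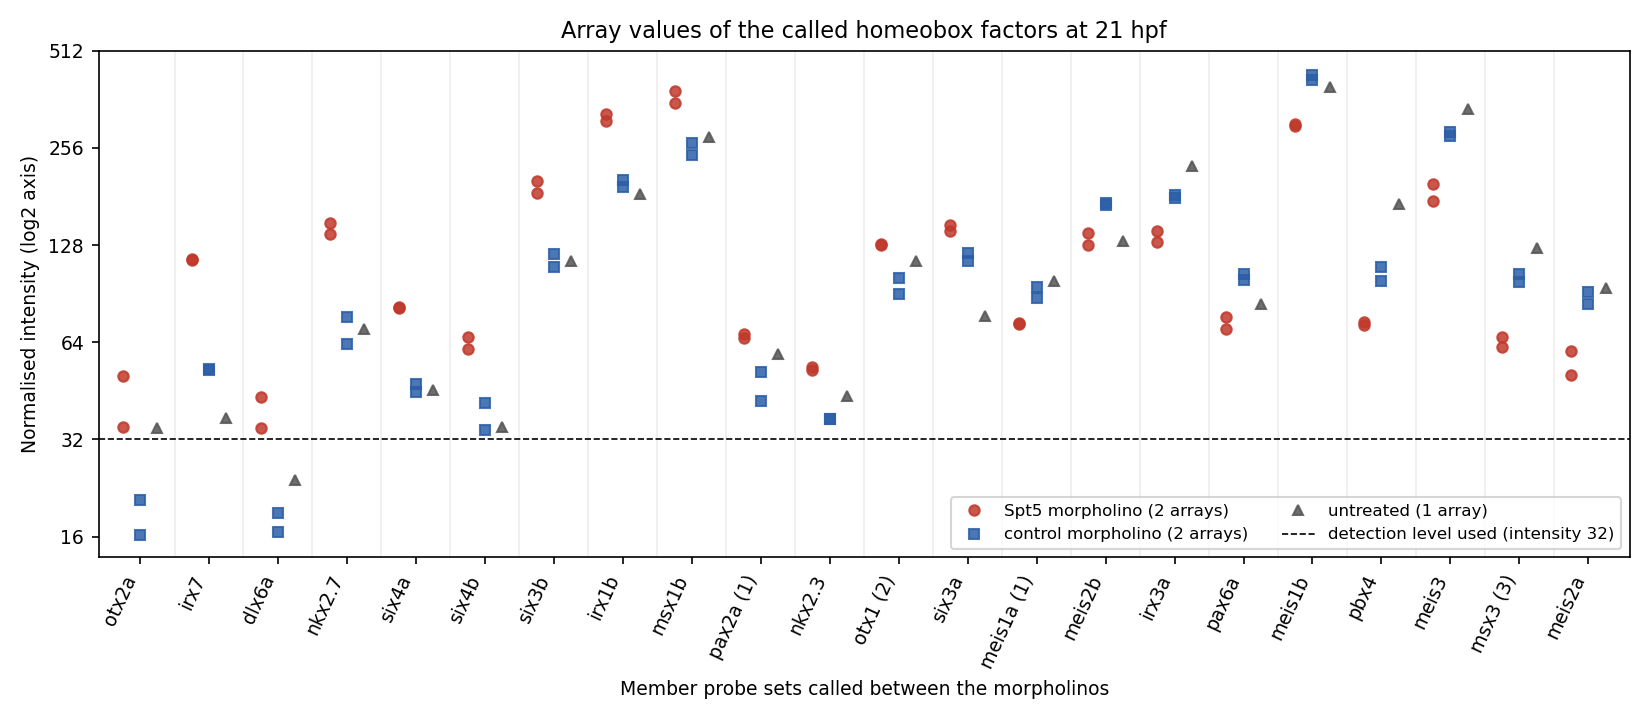
Normalised intensity (y axis, log2 scale) of the 22 called member probe sets on each array at 21 hpf, ordered by the difference between the morpholinos; circles are the 2 Spt5 morpholino arrays, squares the 2 control morpholino arrays and triangles the untreated array. The control values of otx2a and dlx6a lie below the dashed line at an intensity of 32, and in irx7 both Spt5 arrays (116 and 115) lie above all other values.

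The same values were also sorted by embryo region. In hindbrain and spinal cord 0 of 8 tested probe sets were higher and 6 lower (median -0.43), in the midbrain and its boundary 5 of 10 were higher and 1 lower (median 0.29), and in forebrain and eye 3 of 10 were higher and 1 lower (median 0.19). Of 4 tested probe sets of placode and ear genes 2 were higher and 0 lower, of 6 of neural crest, dorsal neural tube and fin fold 1 was higher and 1 lower, and of 2 of mesoderm and endoderm both were higher. Over all probe sets 24.3% were higher and 23.0% lower, and the counts in forebrain and eye and in neural crest, dorsal neural tube and fin fold lay near those shares. The midbrain values include otx2a and the forebrain values dlx6a. Both genes passed the filter only through their Spt5 values, so for them a difference was built in. Each gene was placed in 1 region by its best known domain, while most are expressed in several, so these groups are a coarse sorting of the same values. The regions were also drawn up with earlier results of these data known, so the contrast between them is no independent result. The tested hindbrain probe sets are all meis and pbx genes, and region and family cannot be told apart there. irx1b and irx7, which also act in the hindbrain and were higher, were placed with the midbrain and boundary, so that the count of 0 higher depends on that placement. Under spike-in centring the median of the midbrain group was -0.17 and on the deposited scale -0.12, so its direction followed the scaling. The hindbrain median was -0.68 and -0.63. The median of all tested probe sets was -0.275 and -0.21 under the same scalings. Both scalings thus shift the whole array down, so a median already below 0 keeps its sign there, and that sign is no check.

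**Figure D3:**
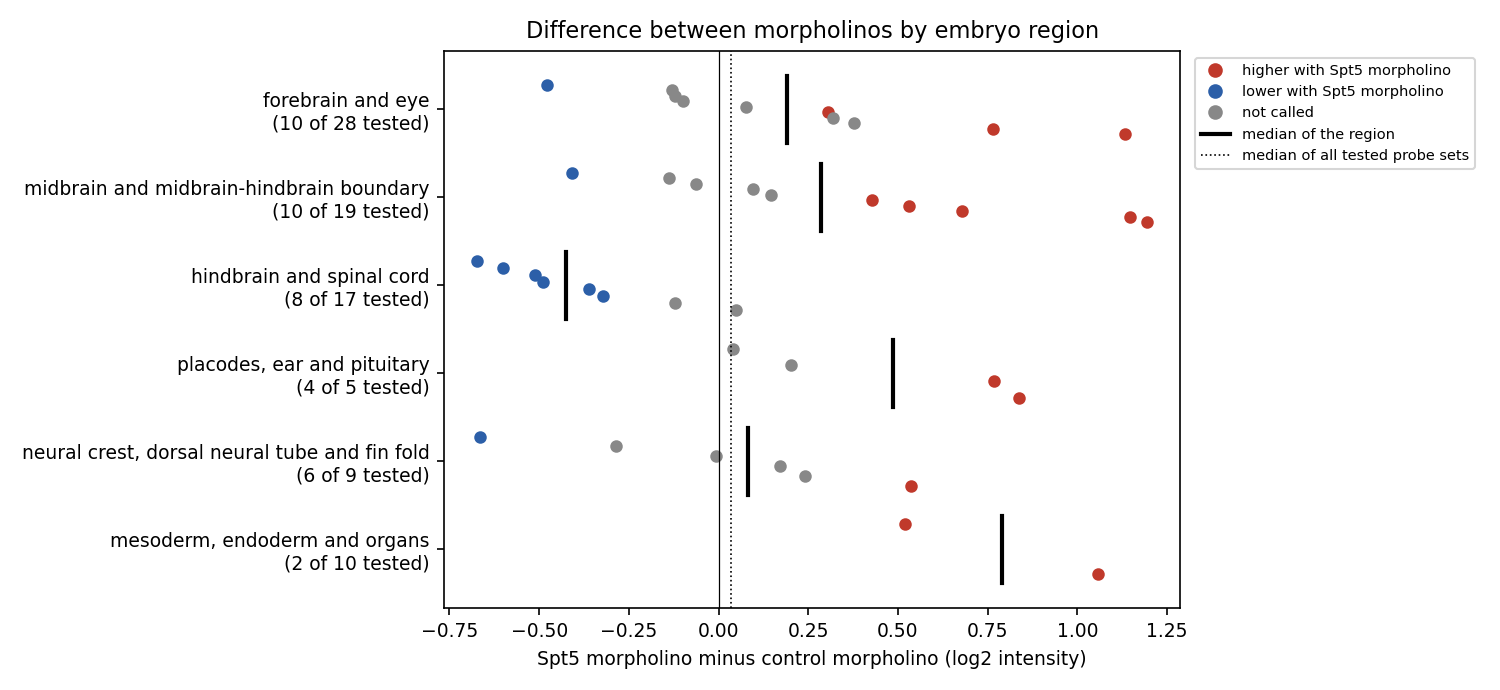
Log2 difference between Spt5 and control morpholino embryos (x axis) for the tested member probe sets in 6 embryo regions; points are probe sets coloured by their call, thick bars region medians, and the dotted line the median of all tested probe sets. The hindbrain and spinal cord group has a median of -0.43, and the groups of placodes and of mesoderm and endoderm rest on 4 and 2 probe sets.

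The filter left 50 of the 90 probe sets without a test. On the 4 morpholino arrays 46 of them never reached an intensity of 32, and 4 did so on 1 array. The loss was uneven: 13 of 16 pax, 9 of 10 lhx, 7 of 9 nkx, 7 of 11 six-family and 4 of 6 pbx probe sets were not tested, against 0 of 6 meis. All 4 probe sets of pax7a, all 3 of lhx1a, all 3 of pbx1a and both of pax5 were among them, although these genes have known domains at this age. The ventral midline genes nkx2.2a and nkx2.9 stood just below the filter. nkx2.2a was at 22.4 and 23.7 with the Spt5 morpholino, against 29.4 and 34.4 with the control morpholino, and nkx2.9 at 19.3 and 23.7, against 27.7 and 33.1. In both, 1 control array passed the level of detection and no Spt5 array did. The gene of the ventral pharynx and sclerotome pax9 was at 19.9 and 23.2 with the Spt5 morpholino, against 26.9 and 26.6 with the control morpholino, and passed 32 only in untreated embryos, at 38.3. The telencephalic gene emx3 came close to it with the Spt5 morpholino, at 31.3 and 24.6, against 15.2 and 14.3. The remaining probe sets without a test were those of dlx1a, dlx2b, emx1, irx4a, irx4b, lhx1b, lhx2a, lhx3, lhx8a, lhx9, msx2a, nkx1.2la, nkx2.1, nkx2.2b, nkx2.4b, nkx3-2, otx5, pax1b, pax2b, pax3a, pax8, pbx3b and vsx1 and the first of msx3. The filter left these without a test, so whether they differed is not known from the main fit. Of them only otx5 was called when no filter was set, with every value below 32.

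Control morpholino embryos were also set against untreated embryos, in a fit of all 5 arrays at 21 hpf in which the lone untreated array was assumed to vary like the others. Of 41 tested members limma called 0, against 2.87% of 8701 probe sets (1.75% higher and 1.13% lower, of which 1.08% and 0.586% by at least 2-fold). An unadjusted p below 0.05 was found for 11 members, against 23.4% of all probe sets. The most positive difference was 0.60 in six3a, and 27 of 41 were negative, against 48.9% of all probe sets. otx2a, with both control values below 32, was at least 1.08-fold lower with the control morpholino. The smallest adjusted p was that of pbx4 (-0.73, adjusted p = 0.0573). With the filter set at log2 6, six3a (0.60) and irx7 (0.50) were called higher, and irx1a (-0.78) and pbx4 (-0.73) lower. The share of all probe sets called at that filter is not given. These calls therefore cannot be set against the whole array, and they rest on the lone untreated array.

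Against the same untreated array, 9 of 41 members were higher in Spt5 morpholino embryos (23.0% of all probe sets) and 11 lower (20.9%), which together compares with 43.9% of all probe sets. Of the higher members, dlx6a (0.69, at least 1.21-fold) and six5 passed the filter only through their Spt5 values. For them a difference was built in. At least 2-fold differences were found in 2 higher members, irx7 and nkx2.7 (7.38% of all), and in 1 lower one, pbx4 (8.60%). The comparison uses the same Spt5 arrays as the one between morpholinos, and each gene's values are set side by side here. irx7 differed by 1.63 ± 0.11 from untreated (adjusted p = 0.00137) and 1.15 from the control morpholino. For six3b, six4a and six4b the differences from untreated were 0.77, 0.85 and 0.86, against 0.77, 0.84 and 0.77 from the control morpholino. nkx2.7 likewise differed by 1.03 ± 0.16 from untreated (adjusted p = 0.00781). For six3b, six4a, six4b and nkx2.7 the values against both sets of embryos were thus close. For six3a they were not, at 0.90 from untreated (adjusted p = 0.0047) and 0.30 from the control morpholino. How many of all probe sets called between the morpholinos kept their call against untreated embryos is not given. The next count therefore cannot be set against the whole array. Of the 22 members called between the morpholinos, 7 were not called against untreated embryos. These were otx2a at 0.27 ± 0.27 (adjusted p = 0.445), pax2a at 0.19 ± 0.16 (0.381), pax6a at -0.19 ± 0.12 (0.252), meis2b at 0.02 ± 0.12 (0.919), msx1b at 0.41 ± 0.13 (0.0567), nkx2.3 at 0.29 ± 0.11 (0.0917) and the second otx1 probe set at 0.17 ± 0.13 (0.320). pbx4 was lower by -1.23 ± 0.12 (adjusted p = 0.00262), against -0.51 from the control morpholino. msx3, meis3 and irx3a were lower by -0.97 ± 0.12, -0.86 ± 0.13 and -0.73 ± 0.12 (adjusted p of 0.00434, 0.00715 and 0.00884). Called here and tested but not called between the morpholinos were the second msx3 probe set at -0.68, irx1a at -0.91, irx5a at -0.66 and dlx2a. six5, not tested between the morpholinos, was called higher here, but its untreated value of 24.9 lay below 32 and the fold is given as at least 1.05. The control morpholino arrays also stood below the untreated array in irx1a and irx5a, at -0.78 and -0.59. dlx2a, at 79.1 and 82.9 with the Spt5 morpholino and 115 in untreated embryos, was lower by -0.50.

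The untreated embryos at 21 and 5 hpf were compared to see which of these genes had transcripts before gastrulation. With 1 array per age there is no replicate check, and the values below come from a normalization of these 2 arrays alone, on which levels differ from those given above. Of 40 members at or above an intensity of 32 at either age, 31 were at least 2-fold higher at 21 hpf (30.2% of 9294 probe sets) and 7 at least 2-fold lower (32.8%). All 31 passed the filter only through the 21 hpf array, so for them the direction was built in. Among the lower ones, irx7, lhx8a, six5 and the first pax2b probe set passed only through the 5 hpf array, with the same limit. With values under 32 raised to 32, the counts were 21 (23.3%) and 3 (24.3%), and the median log2 difference was 1.04, against -0.11 over all probe sets. Of these 40, only 9 reached 32 at 5 hpf, and 6 did so before normalization. meis1b was at 345 at 21 hpf, against 2.63 at 5 hpf, which gives at least 10.8-fold. meis3 was at 303, against 12.9 (at least 9.47-fold), msx1b at 254, against 18.9 (at least 7.93-fold), and the second probe set of msx3 at 246, against 0.316 (at least 7.69-fold). meis2b, at 125 against 0.866, was at least 3.91-fold higher, meis2a, at 89.0 against 1.75, at least 2.78-fold, and pax2a, at 51.9 against 1.75, at least 1.62-fold. By these limits several other members came before meis2b, meis2a and pax2a. Among them were irx3a, at 210 against 19.5 (at least 6.56-fold), dlx3b, at 174 against 12.2 (at least 5.45-fold), irx1b, at 173 against 22.8, dlx5a (at least 4.85-fold) and pbx2 (at least 4.67-fold). The dim values at 5 hpf have no order, so the limits follow only the levels at 21 hpf.

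A few members ran the other way and were present at 5 hpf, when the embryo is about to begin gastrulation. irx7 was at 29.3 at 21 hpf, against 142 at 5 hpf, at least 4.43-fold lower at the later age. Both otx1 probe sets were lower, at 41.4 against 115 (-1.47, log2) and 108 against 218 (-1.02). The 2 probe sets of lhx8a, which in mice acts in forebrain neurons and in oocytes, were at 6.47 and 1.95 at 21 hpf, against 62.4 and 58.9 at 5 hpf, at least 1.95-fold and 1.84-fold lower. six5, at 17.1 against 38.9, and the first pax2b probe set, at 14.7 against 32.6, were at least 1.22-fold and 1.02-fold lower. Before normalization six5 stood at 28.6 against 28.9 and this pax2b probe set at 25.2 against 23.1, all below 32. For these 2 probe sets the difference and the detection at 5 hpf thus came from the normalization. pbx4 was well above detection at both ages, at 163 and 113.

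**Figure D4:**
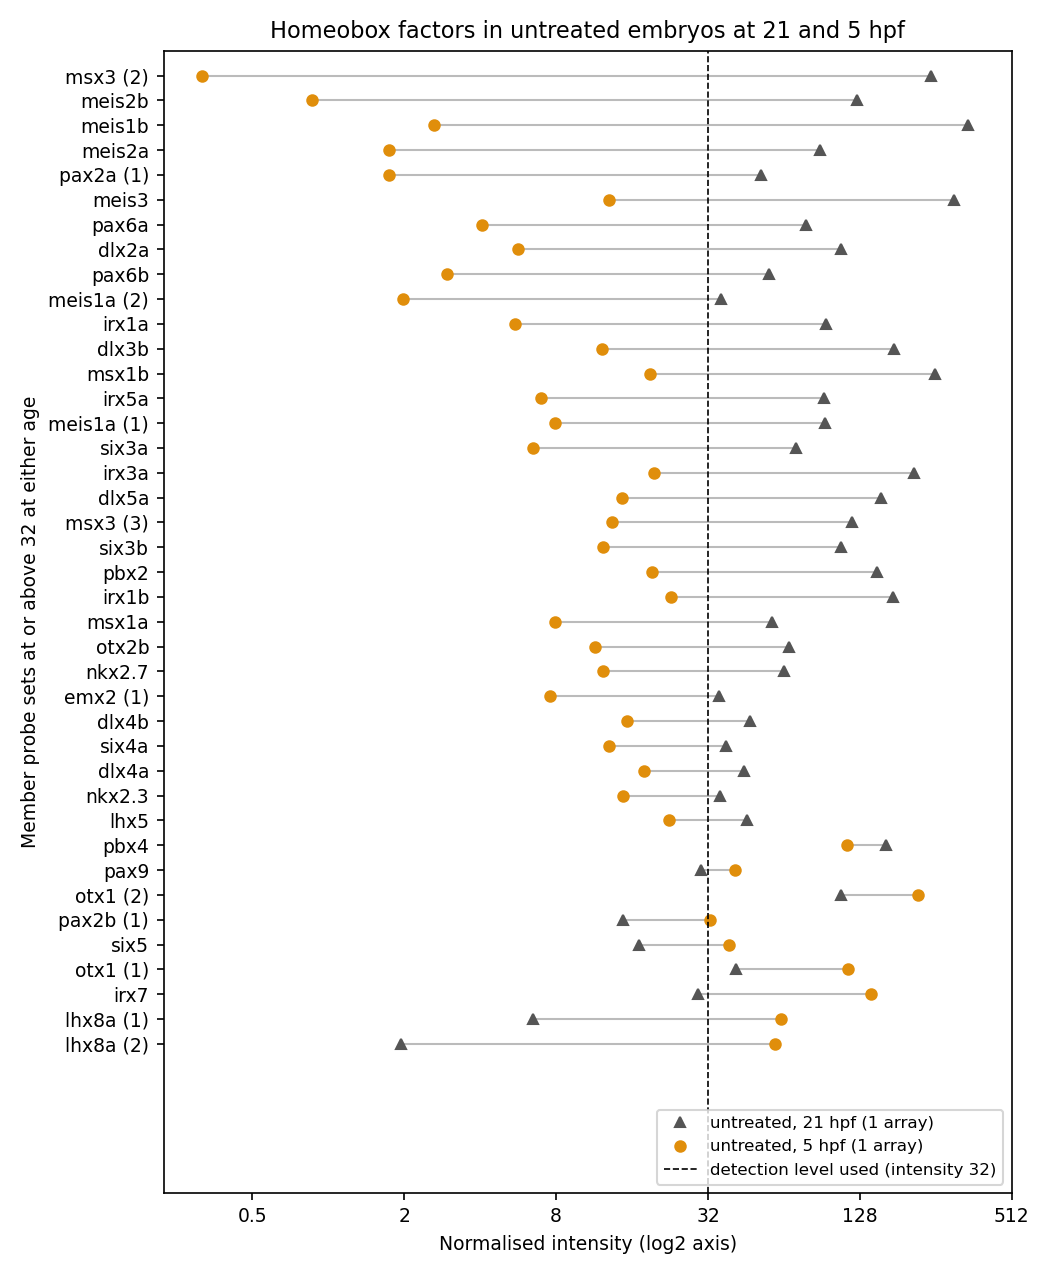
Normalised intensity (x axis, log2 scale) of the 40 member probe sets at or above 32 in untreated embryos at 21 hpf (triangles) or at 5 hpf (circles), 1 array each, ordered by the difference. Most circles lie left of the dashed line at 32 and most triangles right of it, while irx7, otx1 and lhx8a are higher at 5 hpf.

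The age difference and the difference between the morpholinos come from separate arrays. Across the 35 members tested in both, they correlated with Pearson r = -0.46 and Spearman rho = -0.45, against -0.165 and -0.12 over 7818 probe sets. With dim values raised to 32 the members gave -0.45 and -0.41. The points share their arrays, and probe sets are not independent replicates, so this is a description of these libraries. Single genes lay on either side of this relation. irx7, higher at 5 hpf, was higher with the Spt5 morpholino, and otx1, also higher at 5 hpf, was called in 1 of its 2 probe sets. Among genes below detection at 5 hpf, 5 of 6 meis probe sets were lower with the Spt5 morpholino, whereas msx1b, irx1b and six3b, at least 7.93-fold, 5.42-fold and 3.36-fold higher at 21 hpf, and nkx2.7 were higher with it.

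Homeobox genes of other families were described for comparison by counts. Of 29 tested probe sets on a list of such genes, 14 were higher with the Spt5 morpholino and 6 lower, which is 48.3% and 20.7%, against 24.3% and 23.0% of all probe sets. The median difference was 0.42 (0.225 with values under 32 raised to 32). Among the higher ones, the first dmbx1a probe set, eve1 and the vent probe sets (at least 1.29-fold and 1.89-fold) passed the filter only through the Spt5 arrays. Among the lower ones, pou3f3a, pou3f3b and rx1 passed only through the control arrays. For all of these a difference was built in, and the shares above include them. This list and that of regional markers below were drawn up with earlier results of these data known. Their shares are thus a description and no independent comparison with the whole array. The higher ones included the ventral gastrula regulators vox (1.49 ± 0.10), ved (2.19 ± 0.18) and vent, the posterior gene cdx4 (1.06 ± 0.09), the notochord gene noto (0.94 ± 0.12) and the early eye field gene rx3. Also higher were isl2a (0.77 ± 0.10), the tested isl1a probe set (0.54 ± 0.10), pou5f3 (0.54 ± 0.14) and hhex (0.46 ± 0.10). rx3 stood at 74.8 and 89.6 with the Spt5 morpholino, against 16.1 and 38.9 with the control morpholino, so that 1 of its 2 control values lay below detection. 4 of the 6 lower ones were class III POU genes of neural tissue, with pou3f3b at least 3.04-fold lower, pou3f2b at -0.85 ± 0.14 and pou3f1 at -0.55 ± 0.12. The later eye gene rx1 was at least 1.13-fold lower, as both Spt5 values lay below 32. Among regional markers of brain and neural tube that are not members, 6 of 16 probe sets were lower (37.5%) and 1 higher (6.25%), with a median of -0.09. The proneural genes ascl1a and ascl1b were lower by -1.02 ± 0.11 and -1.04 ± 0.10, zic1 by -0.86 ± 0.10, and fgf8a, a signal of the midbrain-hindbrain boundary, was higher by 0.73 ± 0.11. The boundary genes en1b, en2a, en2b, gbx1 and gbx2 differed by -0.15 to 0.42 and were not called. egr2b, which marks segments of the hindbrain, stood at 109 and 90.2 with the Spt5 morpholino, against 68.2 and 82.4 with the control morpholino, and was not called (0.41 ± 0.15, limma adjusted p = 0.0777).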

How the data were processed

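The table deposited by the authors holds linear intensities of each probe set on 6 Affymetrix arrays. Per the submitters' processing notes GCRMA was used, in a version the sources used here do not give. The 115 control probe sets were left out. The log2 of these intensities was quantile normalized across the arrays that entered a fit. Printed intensities come from the 5 arrays at 21 hpf, and morpholino differences from a fit of 4. Probe sets at log2 5 or more on 2 arrays (for the ages, on 1 of 2, with no test) were tested with limma 3.58.1 in R 4.3.3, two-sided, at a Benjamini-Hochberg adjusted p of 0.05. Of 10802 probe sets with 1 symbol, 10718 took their current symbol from RefSeq by Entrez number. Members, regions and lists were chosen with earlier results of these data known. The naming rule took called members at least 2-fold apart, the extreme called member of each family and, for the ages, the 5 largest fitted differences in each direction. The values of the other called members and of some uncalled ones were added after they had been seen, as were further genes with large limits between the ages. The limma script was tested on simulated data. The number of arrays limits the precision. A gene matching the symbol rule was left out and is not reported here.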

Additional observations from a re-analysis of the deposited data

How the results depend on the processing

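Against 4001 probe sets called between the morpholinos, 1655 were called without normalization between arrays, 874 without the filter on dim probe sets and 2352 to 2788 with 1 array left out. Of the members, 13 were higher and 9 lower; 3 and 2 without normalization, 6 and 14 with spike-in centring, 1 and 1 without the filter, and 8 to 10 and 4 to 5 with 1 array left out. The members' median of 0.09 was then -0.15 without normalization, -0.22 with spike-in centring and -0.09 with the filter at log2 6. Against untreated embryos, 9 members were higher and 11 lower with the Spt5 morpholino; 1 and 6 without normalization, 6 and 16 with spike-in centring, 1 and 1 without the filter, and 7 to 11 lower with 1 array left out. With the control morpholino 0 and 0 became 2 and 2 with the filter at log2 6. For these comparisons with untreated embryos, the shares of all probe sets called under the alternative settings are not given. The counts therefore do not show whether the members moved more than the whole array. The members' median age difference of 3.04 was 3.98 without normalization, 3.96 with spike-in centring and 1.27 without the filter. The cause of these shifts was not tested, beyond that scaling moves all probe sets and that fewer arrays or dim probe sets alter what is tested.

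With the replicate number as a replicate block, 13 members were higher and 10 lower, and all 22 called members stayed called. With the block 4439 probe sets were called over the whole array (27.2% higher and 25.2% lower), against 4001. After quantile normalization the same-numbered arrays deviated together only weakly (r = 0.254 over probe sets, in 2 groups of 2). Before it, replicate 2 had the higher median in both groups (36.2 against 26.9 with the Spt5 morpholino, 44.0 against 32.6 with the control morpholino). The main fit did not take the numbers as pairs, and a batch shared by number was not tested.

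No called member reversed. Uncalled members that changed sign were dlx3b (-0.16 without normalization and -0.21 with spike-in centring), dlx4a (-0.1 and -0.16), dlx4b (-0.07 and -0.12), dlx5a (-0.14 and -0.2), the second meis1a probe set (-0.22 and -0.27), msx1a (-0.03 and -0.08), the first otx1 probe set (-0.18 and -0.23) and otx2b (-0.12 and -0.17), and the second emx2 probe set with spike-in centring (-0.02). With 1 array left out the ranges that crossed 0 were those of dlx5a (-0.22 to 0.37), the first emx2 probe set (-0.3 to 0.1), irx5a (-0.23 to 0.1), lhx5 (-0.44 to 0.04), the second meis1a probe set (-0.08 to 0.18), msx2b (-0.08 to 0.06), the first otx1 probe set (-0.04 to 0.23) and pax6b (-0.03 to 0.8). Values for which a fold could only be bounded rest on the level of detection.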
